A study of Rattus norvegicus with 26 samples.

Results

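Genes of potassium channels and of hyperpolarization-activated cyclic nucleotide-gated (HCN) channels were followed in hippocampal tissue, the dentate gyrus (DG), from male F344 rats about 6 months old. The genes were taken by name, as every gene whose symbol begins with Kcn and the HCN genes, and the rows of a gene were summed. This gave 89 genes. A mean of 5 normalised read counts or more was reached by 80 of them, which were tested among 15595 genes in all. Vehicle rats (Veh, n = 10) received oral gavage of vehicle, Dox rats (n = 8) received weekly injections of the chemotherapy drug doxorubicin, an anthracycline, over 4 weeks (2 mg/kg each), and Dox + ABT rats (n = 8) received the same doxorubicin and, in weeks 2 and 4, gavage on 5 consecutive days of ABT-263 (12 mg/kg), which kills senescent cells by blocking anti-apoptotic proteins of the Bcl-2 family. The Veh rats belonged to a running study of brain aging, and 1 library was made per rat from DG tissue of a single hemisphere, so every value is an average over the cells of that tissue. In bulk tissue, fewer cells of a type and less RNA per cell cannot be told apart.

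Potassium channels set the resting potential of a neuron, repolarize it after an action potential and limit how often it fires, while HCN channels carry a depolarizing current that opens when the membrane becomes more negative. Granule cells of the DG are known for a very negative resting potential and sparse firing, to which inward rectifiers and tandem-pore leak channels contribute. Small-conductance calcium-activated (SK) channels contribute to the afterhyperpolarization that follows spikes and take part in setting the threshold for synaptic plasticity. Silent Kv subunits form no channel of their own and change the gating of the Kv2 channels that they join. RNA levels say nothing of channel protein or current, which were not measured in these libraries.

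The libraries held an estimated 10166100 to 24326700 reads, with group medians of 16702300, 15654300 and 15120700 (Veh, Dox, Dox + ABT), as read from the value of 1 read in each library. After group means were taken out, the leading principal component held 28.4% of the variance. Every library was then placed on this axis with its group mean kept, and the largest gap split the libraries into 2 kinds. Differences between groups along the axis were therefore not removed from the split. The first kind had 16 libraries (7 Dox + ABT, 5 Dox and 4 Veh), and the other 10 made up the second kind (1 Dox + ABT, 3 Dox and 6 Veh). The labels name no such split, the kinds were found from the values, and the share of mitochondrial RNA was 8.90% ± 2.01 (SD, n = 16) for libraries of the first kind against 15.1% ± 3.18 (SD, n = 10) for the second. Because the kinds are spread unevenly over the groups, values from a fit with this split as a covariate, and values in the first kind alone, stand beside the pooled ones for the channel genes that passed.

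Between Dox and Veh, 3 of the 80 genes passed the study's threshold of p under 0.01 (limma), and all 3 were lower in Dox: the SK channel genes Kcnn3 and Kcnn1 and the silent subunit gene Kcnf1. Of all tested genes, 2.87% passed in this comparison, 1.02% higher and 1.85% lower in Dox. Set against Veh, Dox + ABT had 10 of the 80 past the threshold, where 7.84% of all genes passed (3.89% higher, 3.95% lower); Kcnh3, Kcnj4, Kcnj11, Kcnk1, Kcnk2, Kcng1, Kcng4, Hcn2 and Kcnn3 were lower in Dox + ABT and Kcnn2 was higher. For Dox against Dox + ABT, 7 passed, where 4.03% of all genes did (2.32% higher and 1.71% lower in Dox): Kcnh3, Kcnj4, Kcnk1, Kcnk2 and Kcna5 were higher in Dox, and Kcnf1 and Kcnj14 were lower. In all, 14 genes passed in at least 1 comparison, and with p-values adjusted over all tested genes 0 of the 80 were under 0.05 in any of the 3 comparisons, while 8, 19 and 11 had an unadjusted p under 0.05, in the same order of comparisons. At that looser limit the shares of all tested genes were 10.2%, 22.5% and 12.7%.

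The changes were small. The median log2 fold change over the 80 genes was -0.01 for Dox against Veh, 0.00 for Dox + ABT against Veh and 0.01 for Dox against Dox + ABT, where the medians over all tested genes were 0.00 in each. The median size of a change, without its sign, was 0.14, 0.18 and 0.18 in these comparisons, against 0.13, 0.17 and 0.14 over all tested genes, and 0 of the 80 genes differed by more than 1 on the log2 scale. In 0 of the 80 genes did the values of a pair of groups lie fully apart, which held for 0.0192%, 0% and 0.135% of all genes. Fold changes are differences of group means of log2(value + 1), which understates changes of genes with low counts. Counts are not per length of transcript, so a higher mean count is no higher level per length.

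**Figure D1:**
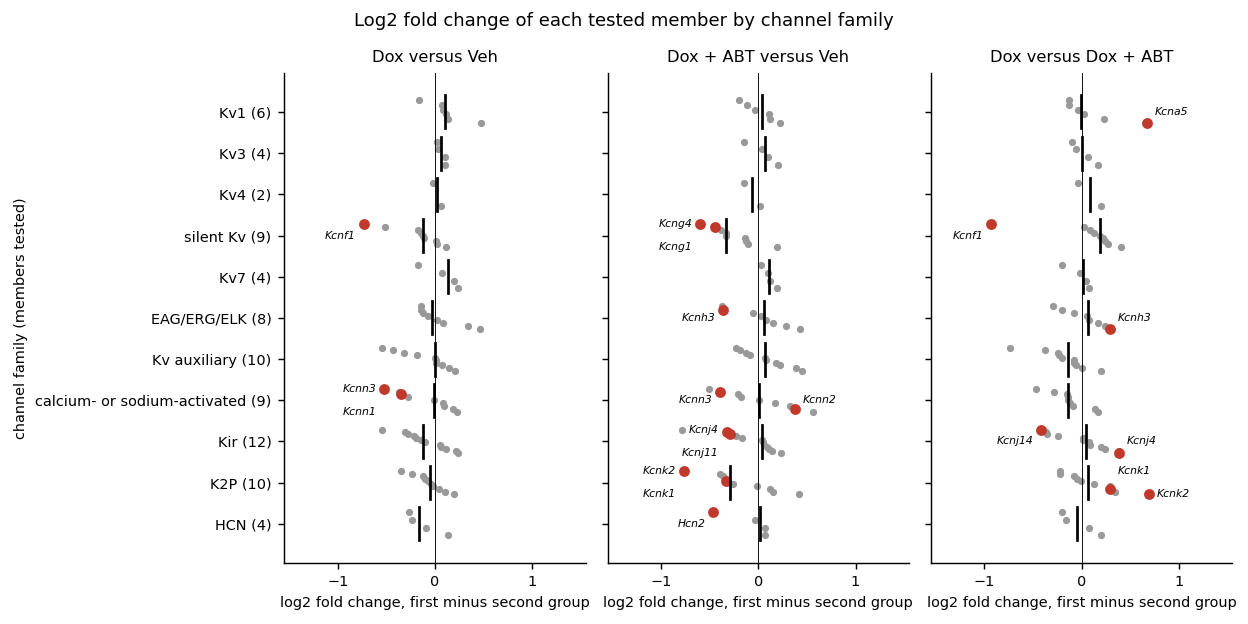
Log2 fold change (x axis, first minus second group) of each gene by channel family, for families with more than 1 tested gene (y axis, number tested in parentheses), in the 3 comparisons; each point is a gene, red points have a limma p under 0.01 and are named, and black bars are family medians. The medians of the silent Kv (-0.33) and K2P (-0.29) families lie left of 0 between Dox + ABT and Veh, while most families stay near 0.

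The SK channels, which calcium entering during a spike opens through bound calmodulin, held the member with the smallest p between Dox and Veh. Kcnn3 encodes SK3, a channel also known from monoaminergic neurons. In Veh its normalised read count ran from 116 over a median of 133 to 180.5. In Dox it ran from 65.5 over 104 to 129, and in Dox + ABT from 78.7 over 115 to 122. All 8 Dox rats and all 8 Dox + ABT rats lay under the Veh median, and 5 Dox and 4 Dox + ABT rats lay under every Veh rat. Against Veh, Dox had a log2 fold change of -0.52 (SE 0.14, limma p = 0.000680, adjusted p = 0.152; exact permutation p = 0.000823). Within the first kind alone this was -0.48 (p = 0.0257) and within the second -0.45 (p = 0.0198), neither of them past the threshold. It passed the threshold with each of the 26 rats left out in turn, with values from -0.58 to -0.44, and with the covariate (-0.47, p = 0.00127). In Dox + ABT against Veh, Kcnn3 stood at -0.40 (SE 0.14, p = 0.00702, adjusted p = 0.118), at -0.29 with the covariate (p = 0.0497) and at -0.29 in the first kind alone (p = 0.137). That call was lost without any 1 of Veh replicates 2, 3, 4 and 12 and Dox + ABT replicates 1, 2 and 6.

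Kcnn1, which encodes SK1, ranged from 214 to 314 around a median of 261 in Veh and from 156 to 264 around 212 in Dox. In Dox + ABT the range was 166 to 279.7 with a median of 228. Of the Dox rats, 4 lay under every Veh rat, and the groups overlapped. The Dox rats differed from Veh by -0.35 on the log2 scale (SE 0.12, p = 0.00689, adjusted p = 0.307), with -0.32 under the covariate (p = 0.0122), -0.25 within the first kind (p = 0.165) and -0.41 within the second (p = 0.0182). Kcnn1 stood in 2 rows, and the one with 95.0% of its counts had a difference of -0.32 (p = 0.0146) and the one with 5.03% had -0.27 (p = 0.758), so neither row passed on its own. The call was lost without any 1 of Veh replicates 1, 2, 3 and 6 or Dox replicates 1, 2, 5 and 13. For Dox + ABT against Veh it was -0.21 (p = 0.0882).

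Kcnn2 encodes SK2, the SK channel of hippocampal dendritic spines, and it lay in the opposite direction. Its normalised read count went from 167 to 402 with a median of 251 in Veh, from 224 to 343 with a median of 303 in Dox and from 239 to 432 with a median of 314 in Dox + ABT. It was higher in Dox + ABT than in Veh (0.37, SE 0.13, p = 0.00895, adjusted p = 0.123; exact permutation p = 0.0220), with 7 of 8 Dox + ABT rats above the Veh median. With the covariate the difference was 0.24 (p = 0.0771), in libraries of the first kind it was 0.14 (p = 0.358), and the call held in 12 of 26 fits with 1 rat left out. The call was lost without any 1 of Veh replicates 2, 3, 9, 11 and 12, Dox replicates 9, 10 and 13 and Dox + ABT replicates 1 to 6. Kcnn2 stood in 3 rows, of which 2 were identical in every library, and the row with 78.8% of its counts had a log2 fold change of 0.53 between Dox + ABT and Veh (p = 0.00211), while the identical rows, with 10.6% of the counts each, were at -0.09 (p = 0.818).

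The other calcium- or sodium-activated genes of the 9 tested did not pass in any comparison. Kcnmb4, the neuronal beta subunit of the large-conductance calcium-activated (BK) channel, had the highest mean of these genes, with medians of 972, 987 and 842 (Veh, Dox, Dox + ABT). Its log2 fold change between Dox and Veh was -0.01 (SE 0.13). The family median was -0.01 between Dox and Veh, with 5 of 9 genes lower, and 0.01 between Dox + ABT and Veh.

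**Figure D2:**
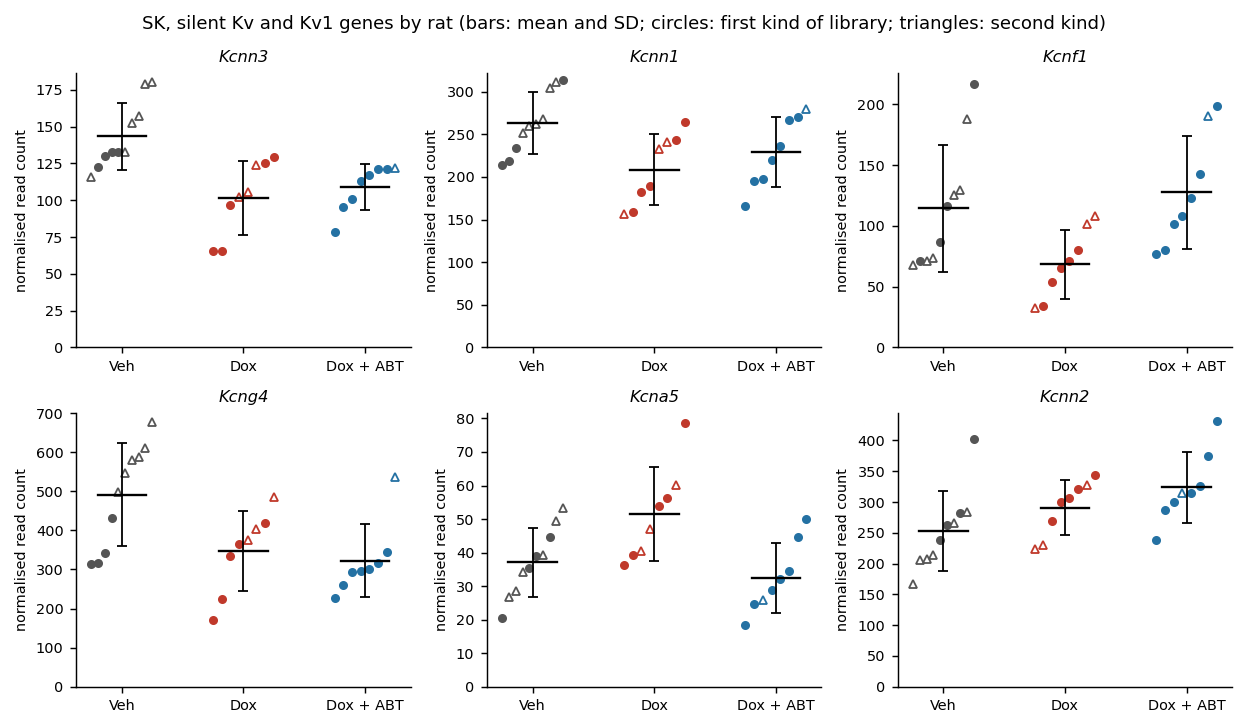
Normalised read counts (y axis, linear) of 6 genes in each rat of the 3 groups; each point is a rat, filled circles are libraries of the first kind and open triangles of the second, and black bars show the mean and SD. Kcnn3 is low in both treated groups, Kcnf1 is low in Dox alone (medians of 102, 68.1 and 116), and Kcng4 is higher in triangles than in circles within Veh.

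Of the 9 silent Kv genes, 1 was lower in Dox than in Veh (1.85% of all genes were), 2 were lower in Dox + ABT than in Veh (3.95% of all genes), and 1 was lower in Dox than in Dox + ABT (1.71% of all genes). The family median was -0.12, -0.33 and 0.19 in the 3 comparisons, and 8 of the 9 genes had a lower mean in Dox + ABT than in Veh, as had 7814 of the 15595 tested genes. In the first kind of library alone the second of these medians was -0.07.

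Kcnf1 encodes the silent subunit Kv5.1. Its counts ran from 68.2 over 102 to 216 in Veh, from 32.8 over 68.1 to 108 in Dox, and from 76.7 over 116 to 199 in Dox + ABT. Every Dox rat lay under the Dox + ABT median, and 5 of 8 lay under every Dox + ABT rat. Dox stood at -0.93 against Dox + ABT on the log2 scale (SE 0.27, p = 0.00216, adjusted p = 0.181; exact permutation p = 0.00575), -0.97 with the covariate (p = 0.00168) and -0.94 in the first kind of library alone (p = 0.00270), and it passed with each rat left out. Against Veh it stood at -0.73 (SE 0.26, p = 0.00886, adjusted p = 0.335; exact permutation p = 0.0244), a call that 12 of the 26 fits with 1 rat left out did not make. These were the fits without Veh replicate 2, 6, 9, 10 or 12, Dox replicate 1, 2, 7, 10 or 13, or Dox + ABT replicate 3 or 5. The covariate gave -0.70 (p = 0.0135), the first kind alone -0.92 (p = 0.00825) and the second kind alone -0.50. Kcnf1 was the 1 gene of the 80 that was lower in Dox than in Veh and also lower in Dox than in Dox + ABT. The comparisons share the Dox rats.

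Kcng4 and Kcng1 encode the silent subunits Kv6.4 and Kv6.1. Kcng4 ran from 314 over 523 to 676 in Veh, from 171 over 371 to 484 in Dox and from 227 over 299 to 535 in Dox + ABT. Dox + ABT differed from Veh by -0.60 on the log2 scale (SE 0.19, p = 0.00377, adjusted p = 0.110), and without Dox + ABT replicate 5 the call was lost. For Dox against Veh the value was -0.51 (SE 0.19, p = 0.0111). With the covariate the order turned: the Dox comparison with Veh had p = 0.00966 (-0.36) and the Dox + ABT comparison with Veh had p = 0.0615 (-0.27). In the first kind alone the latter was -0.27 (p = 0.174). Among Veh rats Kcng4 averaged 351 ± 54.8 (SD, n = 4) where libraries were of the first kind and 584 ± 59.6 (SD, n = 6) where they were of the second.

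Kcng1 had the highest mean of the silent genes. It ran from 1532 over 2473 to 3194 in Veh, from 1400.3 over 2324 to 2897 in Dox and from 1501 over 1782 to 2316 in Dox + ABT. All 8 Dox + ABT rats lay under the Veh median, and the ranges overlapped. The change from Veh to Dox + ABT was -0.45 on the log2 scale (SE 0.13, p = 0.00222, adjusted p = 0.109), with -0.31 under the covariate (p = 0.0234) and -0.24 in the first kind alone (p = 0.194).

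Among the 17 pore-forming Kv1 to Kv4 and Kv7 genes, 1 passed between Dox and Dox + ABT (4.03% of all genes did) and none passed in the other two comparisons (2.87% and 7.84% of all genes did). Kcna5 encodes Kv1.5, a delayed rectifier known from vessels, heart and glia, and it was present at low counts. In Veh it ran from 20.4 over 37.2 to 53.2, in Dox from 36.2 over 50.4 to 78.7, and in Dox + ABT from 18.5 over 30.4 to 49.9. All 8 Dox rats lay above the Dox + ABT median and 4 lay above every Dox + ABT rat. The difference between Dox and Dox + ABT was 0.67 (SE 0.21, p = 0.00302, adjusted p = 0.186; exact permutation p = 0.00622), it was 0.67 with the covariate (p = 0.00385) and 0.66 in the first kind alone (p = 0.0198), and it passed with each rat left out. Against Veh, Dox was at 0.47 (SE 0.20, p = 0.0239) and Dox + ABT at -0.20 (SE 0.20, p = 0.310).

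Kcna2 encodes Kv1.2, a channel of axons and terminals, and it had the highest mean of the Kv1 genes. Its medians were 2247, 2380.1 and 2679 (Veh, Dox, Dox + ABT), and its log2 fold changes against Veh were 0.09 (SE 0.11, p = 0.432) in Dox and 0.22 (SE 0.11, p = 0.0505) in Dox + ABT.

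All 4 Kv3 genes, which serve fast repolarization, had a slightly higher mean in Dox than in Veh, with log2 fold changes from 0.02 to 0.10 and no call. Kcnd3 encodes Kv4.3, an A-type channel, and was at medians of 1192, 1206 and 1212 (Veh, Dox, Dox + ABT), with a difference between Dox and Veh of -0.02 (SE 0.09). Kcnd1 (Kv4.1) differed by 0.06 (SE 0.13).

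The Kv7 genes carry the M current, which muscarinic receptors suppress. Kcnq5, with the smallest p of them between Dox and Veh, was at medians of 1327, 1628 and 1619 (Veh, Dox, Dox + ABT), and its log2 fold changes against Veh were 0.23 in Dox (SE 0.13, p = 0.0931) and 0.19 in Dox + ABT (SE 0.13, p = 0.170). None of the 4 tested Kv7 genes passed in any comparison by limma, and 0 had an unadjusted p under 0.05.

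Kcnh3, of the ether-a-go-go family, encodes Kv12.2, a channel of forebrain principal neurons that acts near the resting potential. It had the smallest p of the 80 genes between Dox + ABT and Veh. Its counts ran from 1919 over 2672 to 2947 in Veh, from 2314 over 2401 to 2609 in Dox and from 1664 over 2007 to 2396 in Dox + ABT. Every Dox + ABT rat lay under both the Veh and the Dox median. Dox + ABT differed from Veh by -0.36 on the log2 scale (SE 0.08, p = 0.000176, adjusted p = 0.108; exact permutation p = 0.00267), and Dox differed from Dox + ABT by 0.29 (SE 0.09, p = 0.00284, adjusted p = 0.186; exact permutation p = 0.000777). Both passed with each rat left out and with the covariate, at -0.27 (p = 0.00193) and 0.24 (p = 0.00450). In the first kind alone the value against Veh was -0.21 (p = 0.0440) and that against Dox was 0.33 (p = 0.00168). Dox against Veh gave -0.07 for Kcnh3 (SE 0.08, p = 0.392).

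The other 7 genes of this family did not pass in any comparison. Kcnh6, an ERG-type gene at low counts, had the smallest p of the family between Dox and Veh, with medians of 35.3, 51.9 and 50.0 (Veh, Dox, Dox + ABT) and a difference of 0.46 (SE 0.20, p = 0.0302). In the first kind of library that difference was 0.66 (p = 0.00843).

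Among the inward rectifiers, Kcnj4 and Kcnj11 were lower in Dox + ABT than in Veh. Kcnj4 encodes Kir2.3, which helps hold the negative resting potential, and had the smallest p of the 80 genes between Dox and Dox + ABT. Its counts ran from 2002 over 2218 to 2917 in Veh, from 1859 over 2451 to 2851 in Dox and from 1703 over 1789 to 2368 in Dox + ABT. Of the Dox + ABT rats, 7 of 8 lay under every Veh rat, and replicate 12 stood apart at 2368. On the log2 scale Dox + ABT lay at -0.33 against Veh (SE 0.09, p = 0.00131, adjusted p = 0.109), and Dox lay at 0.39 against Dox + ABT (SE 0.10, p = 0.000421, adjusted p = 0.129; exact permutation p = 0.00218). Both passed with each rat left out and with the covariate, at -0.30 (p = 0.00482) and 0.37 (p = 0.000622). In the first kind alone, the change against Veh was -0.15 (p = 0.113) and that against Dox was 0.48 (p = 1.5e-05). Dox against Veh stood at 0.06 for Kcnj4 (p = 0.524), made of 0.33 in the first kind (p = 0.00264) and -0.21 in the second.

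Of the 4 genes that were lower in Dox + ABT than in both Veh and Dox (Kcnh3, Kcnj4, Kcnk1 and Kcnk2), the RefSeq promoter table (build GRCr8) held Kcnj4, with 1 start site, and Kcnk2, with 2, and in all it matched 51 of the 80 genes by symbol. The 250 bases before each of these start sites are shown 5′ to 3′, because both genes passed in the same pair of comparisons, which share the Dox + ABT rats, in lower case with motif matches in capitals. The motifs searched, on both strands, were the cyclic AMP response element TGACGTCA, its core TGACG (which lies inside it), the E-box CACGTG, the GC box GGGCGG and the TATA motif TATAAA.
Kcnj4, chr7:112954548-112954797, minus strand: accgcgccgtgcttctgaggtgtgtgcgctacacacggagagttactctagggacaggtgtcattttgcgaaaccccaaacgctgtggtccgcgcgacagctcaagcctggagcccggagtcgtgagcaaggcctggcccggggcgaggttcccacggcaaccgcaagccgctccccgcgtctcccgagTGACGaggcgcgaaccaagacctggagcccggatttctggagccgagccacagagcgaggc
Kcnk2, chr13:103438643-103438892, minus strand: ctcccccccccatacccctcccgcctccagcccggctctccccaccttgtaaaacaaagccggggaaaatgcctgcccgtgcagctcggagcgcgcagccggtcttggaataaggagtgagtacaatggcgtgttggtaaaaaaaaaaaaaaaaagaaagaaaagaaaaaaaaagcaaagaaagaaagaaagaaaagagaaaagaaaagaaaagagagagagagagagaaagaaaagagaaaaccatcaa
Kcnk2, chr13:103494687-103494936, minus strand: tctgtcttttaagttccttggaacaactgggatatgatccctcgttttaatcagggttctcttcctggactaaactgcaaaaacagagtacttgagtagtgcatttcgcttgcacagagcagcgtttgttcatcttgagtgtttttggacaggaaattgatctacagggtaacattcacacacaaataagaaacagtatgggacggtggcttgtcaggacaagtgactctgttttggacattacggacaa
The Kcnj4 window held 1 match, the core TGACG, which starts 61 bases before the start site and stands in 19% of 27457 genes of the table, with 1 window of this length taken per gene. The Kcnk2 windows held 0 matches. The GC content was 65.6% for Kcnj4 and 45.6% and 42% for the Kcnk2 sites, against medians of 65.2% over the matched channel genes and 52% over all genes of the table, and the GC box stood in 29 of the 51 matched channel genes (56.9%) and in 32.4% of all genes of the table, again with 1 window per gene.

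Kcnj11 encodes Kir6.2, the pore of the ATP-sensitive channel. It ran from 615 over 849.5 to 963 in Veh, from 619 over 763 to 833 in Dox and from 513 over 643 to 851 in Dox + ABT. It changed from Veh to Dox + ABT by -0.29 on the log2 scale (SE 0.10, p = 0.00538, adjusted p = 0.115; exact permutation p = 0.0144), -0.21 with the covariate (p = 0.0386) and -0.09 in the first kind alone (p = 0.426). The call was lost without any 1 of Veh replicates 1, 2 and 3 and Dox + ABT replicates 5, 6 and 11. Kcnj14 encodes Kir2.4 and was lower in Dox than in Dox + ABT. Its counts were 179.8, 221 and 286 (lowest, median and highest) in Veh, 118, 189 and 279.5 in Dox and 222, 239 and 312 in Dox + ABT. Of the Dox rats, 6 lay under every Dox + ABT rat. The difference was -0.42 (SE 0.14, p = 0.00689, adjusted p = 0.228; exact permutation p = 0.0196), -0.37 with the covariate (p = 0.0133) and -0.44 in the first kind alone (p = 0.0227), and it was lost without any 1 of Dox replicates 1, 2 and 14 and Dox + ABT replicates 2 and 12.

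Of the tandem-pore (K2P) leak channel genes, 2 of 10 were lower in Dox + ABT than in Veh, where 3.95% of all genes were, and the same 2 were lower than in Dox, where 2.32% of all genes were. None passed between Dox and Veh, where 0 had an unadjusted p under 0.05 by limma. Kcnk2 encodes TREK-1, a leak channel opened by stretch, heat and lipids. Its counts ran from 261 over 477 to 712 in Veh, from 245 over 415 to 1093 in Dox and from 221 over 266 to 371 in Dox + ABT. All 8 Dox + ABT rats lay under the Veh median, and 4 lay under every Veh rat. Relative to Veh, Dox + ABT was at -0.76 on the log2 scale (SE 0.22, p = 0.00191, adjusted p = 0.109), and Dox relative to Dox + ABT was at 0.69 (SE 0.24, p = 0.00654, adjusted p = 0.227; exact permutation p = 0.0109). With the covariate these were -0.34 (p = 0.0244) and 0.47 (p = 0.00267), and in the first kind alone -0.32 (p = 0.0420) and 0.36 (p = 0.0159). The second of these calls was lost without any 1 of Dox replicates 1, 5, 7 and 14 and Dox + ABT replicates 2, 5, 6 and 12. Kcnk2 differed by -0.07 (SE 0.22) between Dox and Veh.

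Kcnk1 encodes TWIK-1, a leak channel of weak inward rectification, and had the highest mean of the K2P genes. It ran from 1069 over 1587 to 1719 in Veh, from 1111 over 1416 to 1764 in Dox and from 1021 over 1131 to 1292 in Dox + ABT. All 8 Dox + ABT rats lay under the Veh median. Their mean lay at -0.33 against Veh on the log2 scale (SE 0.10, p = 0.00261, adjusted p = 0.109), at -0.16 with the covariate (p = 0.0375) and at -0.06 in the first kind alone. Dox against Dox + ABT was at 0.29 (SE 0.11, p = 0.00990, adjusted p = 0.247), at 0.20 with the covariate (p = 0.0104) and at 0.23 in the first kind alone (p = 0.0128). The call was also lost with no variance trend and with quantile normalization, and 17 of the 26 fits with 1 rat left out did not make that call, among them 5 without a Veh rat (replicate 2, 3, 4, 5 or 12), 5 without a Dox rat (2, 5, 7, 13 or 14) and 7 without a Dox + ABT rat (all but replicate 4). Kcnk1 stood in 2 rows, with 15.4% and 84.6% of its counts, whose changes between Dox + ABT and Veh were -0.16 (p = 0.856) and -0.39 (p = 0.0238). Between Dox and Dox + ABT the same rows stood at 0.51 (p = 0.599) and 0.20 (p = 0.267), so neither comparison passed on a single row.

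Kcnk3 (TASK-1), the K2P gene with the smallest p between Dox and Veh, had medians of 116, 85.0 and 82.7 (Veh, Dox, Dox + ABT), with a difference of -0.35 (SE 0.26, p = 0.186). The K2P median was -0.06, -0.29 and 0.06 in the 3 comparisons. Between Dox + ABT and Veh it was -0.13 both with the covariate and in the first kind alone.

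**Figure D3:**
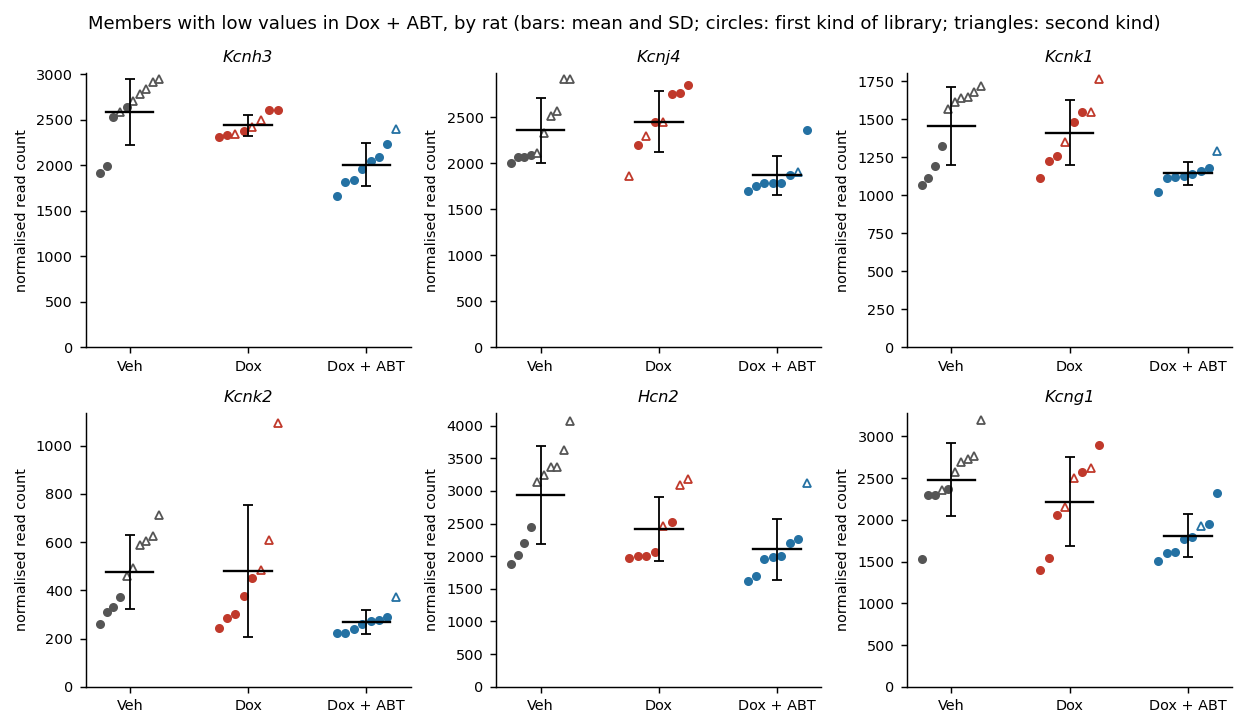
Normalised read counts (y axis, linear) of 6 genes in each rat of the 3 groups; each point is a rat, filled circles are libraries of the first kind and open triangles of the second, and black bars show the mean and SD. Kcnh3, Kcnj4, Kcnk1 and Kcnk2 are lower in Dox + ABT than in both other groups, and within Veh Hcn2, Kcnj4, Kcnk1 and Kcnk2 are higher in every triangle than in every circle.

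Hcn2, the HCN gene with the highest mean, was the 1 of the 4 HCN genes that passed in any comparison. It passed between Dox + ABT and Veh, where 7.84% of all genes did (3.95% lower). It ran from 1882 over 3191 to 4078 in Veh, from 1978 over 2262 to 3178 in Dox and from 1624 over 1993 to 3123 in Dox + ABT. Dox + ABT lay at -0.46 against Veh on the log2 scale (SE 0.15, p = 0.00385, adjusted p = 0.110; exact permutation p = 0.0146), and it was lost without Dox + ABT replicate 5 or 6. With the covariate it was -0.17 (p = 0.0520), and in the first kind alone -0.13 (p = 0.219). Dox lay at -0.26 against Veh (SE 0.15, p = 0.0841), and at -0.01 within the first kind and -0.26 within the second. Hcn2 went with the kind of library. Veh libraries of the first kind averaged 2139 ± 247 (SD, n = 4) and those of the second 3472 ± 339.6 (SD, n = 6), and Dox libraries 2116 ± 227 (SD, n = 5) and 2910.0 ± 396 (SD, n = 3). The 1 Dox + ABT library of the second kind was the highest of its group, at 3123.

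Hcn3 was at medians of 212, 251 and 234 (Veh, Dox, Dox + ABT), with log2 fold changes against Veh of 0.14 (SE 0.14, p = 0.329) in Dox and 0.07 (SE 0.14, p = 0.631) in Dox + ABT. Hcn4, the slow subunit, was at 32.3, 27.9 and 32.2, with changes of -0.23 (SE 0.21, p = 0.284) and -0.03 (SE 0.21, p = 0.886).

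The auxiliary genes (Kv beta subunits, KCNE subunits and the calcium-binding KChIPs) gave no call in any of the 3 comparisons by limma on the authors' normalised values, with 1 of the 10 genes at an unadjusted p under 0.05 in each. Kcnip2 encodes KChIP2, a partner of Kv4 channels, and was picked out after its values were seen. Its means were 2817, 3201 and 3774 (Veh, Dox, Dox + ABT), and the last differed from the first by 0.45 on the log2 scale (p = 0.0112), by 0.17 under the covariate (p = 0.178) and by 0.21 among libraries of the first kind (p = 0.0453). That difference passed p under 0.01 after TMM rescaling, after quantile normalization and with library weights. Kcnab2 encodes the beta subunit of axonal Kv1 channels and had the highest mean, with medians of 5933, 6421 and 5239 (Veh, Dox, Dox + ABT). Kcnip3 encodes KChIP3, also known as DREAM, which binds Kv4 channels. It ran from 757 over 896 to 1115 in Veh and from 619 over 815 to 844 in Dox, and all 8 Dox rats lay under the Veh median, with a difference of -0.18 (SE 0.08, p = 0.0260). Kcnrg, a cytoplasmic regulator at medians under 10 counts, differed between Dox and Veh by -0.50 (SE 0.43, p = 0.257).

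When the split of the libraries was a covariate, 2 of the 80 genes passed between Dox and Veh (Kcnn3 and Kcng4; 2.7% of all genes), 2 between Dox + ABT and Veh (Kcnh3 and Kcnj4; 1.37% of all genes) and 5 between Dox and Dox + ABT (Kcna5, Kcnf1, Kcnh3, Kcnj4 and Kcnk2; 4.76% of all genes). In the first kind of library alone, 5 passed between Dox and Veh (4.76% of all genes), of which Kcnf1 was among the 3 above and Kcng2, Kcnh6, Kcnj16 and Kcnj4 were not. There, 0 passed between Dox + ABT and Veh by limma (1.1% of all genes), with 9 at an unadjusted p under 0.05 (5.86% of all genes). Between Dox and Dox + ABT 7 passed there (8.21% of all genes), with Kcnf1, Kcnh3 and Kcnj4 shared with the pooled fit. The fit of the first kind holds 4 Veh rats. The second kind alone, with 6 Veh and 3 Dox rats, gave 4 calls between Dox and Veh (3.57% of all genes): Kcng4 and Kcnj11 were lower in Dox and Kcna4 and Kcnj2 higher, and none of the 3 genes called from all libraries was among them. Comparisons share the Veh, Dox or Dox + ABT rats, so their values stand side by side and are not independent of each other.

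**Figure D4:**
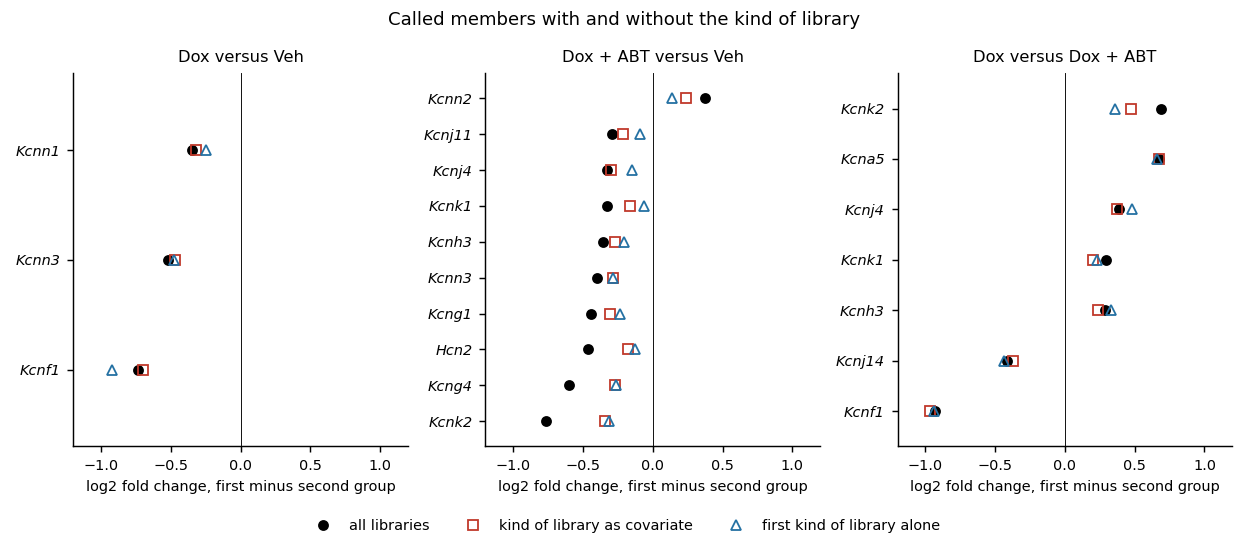
Log2 fold change (x axis, first minus second group) of each gene with a limma p under 0.01 (y axis) in the 3 comparisons, from all libraries (black circles), with that split as covariate (red squares) and from the first kind alone (blue triangles). Kcnn3 between Dox and Veh (-0.52, -0.47 and -0.48) and Kcna5 between Dox and Dox + ABT (0.67, 0.67 and 0.66) lie close under the 3 fits, while between Dox + ABT and Veh values such as that of Kcnk2 move from -0.76 to -0.34 with the covariate.

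Within groups, the second kind of library differed from the first in, among others, Kcnj16 (1.11 on the log2 scale), Kcnk2 (0.89), Kcnh4 (-0.71), Kcng4 (0.69), Kcne2 (-0.61) and Hcn2 (0.61). These genes were named after their values had been seen, and since the kinds were drawn from the same values these differences are a description. Kcnj16, an inward rectifier of astrocytes, was at medians of 211, 115 and 108 (Veh, Dox, Dox + ABT), with 586 in 1 Dox rat. Its change between Dox + ABT and Veh was -0.78 (SE 0.30, p = 0.0148), or -0.25 with the covariate (p = 0.256).

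From a list of 30 partner genes, whose products bind, traffic or signal to these channels, 28 gene IDs were tested, of which 2 carry the symbol Calm2. In Dox 1 of the 28 was lower than in Veh, where 2.87% of all genes passed: Vapb, which encodes an endoplasmic reticulum protein that binds Kv2 channels, which averaged 834 ± 86.9 normalised counts (SD, n = 10) among Veh rats and 691 ± 147 (SD, n = 8) among Dox rats. This was a log2 fold change of -0.29 (SE 0.10, limma p = 0.00572, adjusted p = 0.305), or -0.24 with the covariate (p = 0.00958). In Dox + ABT 3 of the 28 were lower than in Veh, where 7.84% of all genes passed: Vapb (-0.32, SE 0.10, p = 0.00252), Gabbr1 (-0.32, SE 0.11, p = 0.00654), which encodes a subunit of the GABA-B receptor that opens Kir3 channels, and Chrm1 (-0.27, SE 0.09, p = 0.00701), which encodes the muscarinic receptor that closes Kv7 channels. With the covariate 0 of these 3 passed by limma, with p = 0.0265 for Vapb, 0.0941 for Gabbr1 and 0.0911 for Chrm1. Dox rats averaged 3055 ± 242 (SD, n = 8) for Chrm1, and Dox + ABT rats 2481 ± 267 (SD, n = 8). That difference was 0.30 (SE 0.10, limma p = 0.00449), and with the covariate it was 0.23 (p = 0.00549).

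Calls among markers of other cell types are given beside the share of all genes that passed, which was 2.87% (2.7% with the covariate) for Dox against Veh, 7.84% (1.37%) for Dox + ABT against Veh and 4.03% (4.76%) for Dox against Dox + ABT, and with lists of 4 to 9 genes a single call is no result about a cell type. In Dox against Veh, 4 of 8 microglia markers, 3 of 8 astrocyte markers, 2 of 8 oligodendrocyte markers and 1 of 7 mural markers were lower, and of 6 endothelial markers 2 were higher and 1 lower. With the covariate, 2 microglia markers and 1 oligodendrocyte marker were lower, and the counts of the other lists were the same. The summed astrocyte markers ran from 45990 to 56159 in Dox and from 52817 to 78026 in Veh, and the summed microglia markers from 2123 to 3726 and from 2657 to 5260. In Dox + ABT against Veh, 2 of 7 granule cell, 2 of 8 microglia, 2 of 7 mural, 1 of 8 astrocyte and 1 of 5 oligodendrocyte precursor markers were lower, while 2 of 9 interneuron markers and 1 of 8 oligodendrocyte markers were higher. With the covariate 1 granule cell and 1 mural marker passed there, both lower, and 0 of the others by limma. The granule cell markers did not share a direction: C1ql2 (-0.46, p = 0.000697) and C1ql3 (-0.55, p = 0.00786) were lower in Dox + ABT, and Prox1 (0.22, p = 0.134) and Plk5 (0.63, p = 0.0365) had higher means, with sums of 11319 to 15089 in Dox + ABT and 12012 to 17451 in Veh. These 4 were named after their values had been seen. In Dox against Dox + ABT, 2 of 6 excitatory neuron markers and 1 of 7 granule cell markers were higher, 2 of 8 oligodendrocyte markers and 1 of 8 astrocyte markers were lower, and of 6 endothelial markers 1 was higher and 1 lower. The covariate gave 3 excitatory neuron and 1 granule cell marker higher, 3 oligodendrocyte, 2 astrocyte, 1 microglia, 1 mural and 1 choroid plexus or meninges marker lower, and 1 endothelial marker in each direction. Markers of CA field or mossy cells and of thalamus gave no call in either fit. The part of these markers in the values of the channel genes was not tested.

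The channel genes known from single cell types gave no call in the fit of all libraries. Kcnj10, the main inward rectifier of astrocytes, was at medians of 604, 456 and 573 (Veh, Dox, Dox + ABT), with a difference between Dox and Veh of -0.19 (SE 0.15, p = 0.205), or -0.38 in the first kind alone (p = 0.0194). Kcnk13, a leak channel of microglia, was at 45.4, 45.3 and 31.2, with -0.02 (SE 0.18, p = 0.902). Kcnj8, of mural cells, was at 48.5, 57.6 and 42.6, with 0.21 (SE 0.21, p = 0.312). Kcnj13, of the choroid plexus, stayed under the limit of 5 counts on average, and Kcne2, which also marks that tissue, was at 25.9, 21.1 and 34.2. The 9 genes below the limit were Kcna7, Kcne4, Kcnj13, Kcnj15, Kcnk7, Kcnk16, Kcnk18, Kcnq1 and Kcnv2, with means from 1.19 to 3.82 counts.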

How the data were processed

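RNA from the dentate gyrus was sequenced in 26 rats, with 1 library each. Per the labels and the study's methods, reads from poly(A) RNA were aligned with STAR (2.5.3a) to the rat genome build rn6 and quantified in Partek Flow, and the authors compared groups with DESeq2. The deposited values are signal on a count scale, normalised by the authors by median ratios. Whole reads came back for 73.6% to 78.0% of low values of genes with 1 row (tolerance 0.01 read), so counts were not recovered and no count test was run. The table held 24012 rows and 17910 gene IDs, and rows were summed by gene ID. Genes with a mean of at least 5 were tested on log2(value + 1) with limma (3.58.1, R 4.3.3; linear fit to all 26 libraries, moderated with a variance trend, two-sided), at the study's p under 0.01 without adjustment, with Benjamini-Hochberg values over 15595 genes beside it. Exact permutation tests over rats were two-sided. The p-values measure the spread between rats.

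Genes were named if they passed in any comparison, had 1 of the 5 smallest p in a comparison, had the highest mean or the smallest p between Dox and Veh in their family, or were HCN genes, partner genes that passed, or known from a single cell type; some genes that the rule names are not reported here. The members and all lists were chosen with earlier results of these data known. The kind of library was the side of the largest gap on the first principal component of within-group deviations of genes with a mean of 20 or more. Libraries were projected on it with their group means kept. Alternatives covered pseudocounts of 0.5 and 5, the filter, the variance model, library weights, rescaling, the replicate block, the kind of library, single rows and each rat left out. Same-numbered rats of different groups correlated from -0.22 to 0.44 in their deviations over 16 pairs, with 6 pairs over 0.1, so the numbers were not taken as pairs. The fit was tested on simulated data before use. Promoter windows came from RefSeq (GRCr8), a build other than that of the counts, and were used for sequence only.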

Additional observations from a re-analysis of the deposited data

Results flagged for a closer look

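In 42 groups of rats tested for a single value far from the rest (the 14 genes that passed in any comparison, in 3 groups each), 3 such values were found, where chance gives about 1 in 20 groups. Kcng1 was at 1532 normalised counts in Veh replicate 6, below the other Veh rats at 2291 to 3194. In Dox + ABT replicate 12, Kcnj4 was at 2368, above the others at 1703 to 1906, and Kcnj14 was at 312, above the others at 222 to 255. Without Dox + ABT replicate 12 the Kcnj14, Kcnk1 and Kcnk2 differences between Dox and Dox + ABT lost their calls, while that of Kcnj4 kept p under 0.01.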

How the results depend on the processing

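In the comparison where it passed, no member changed direction under an alternative that used its summed rows or its largest row. Smaller single rows did turn between Dox + ABT and Veh: the identical Kcnn2 rows (-0.09) and a Kcnk2 row with 2.32% of its counts (0.04). The silent Kv and K2P medians between Dox and Veh turned from -0.12 to 0.00 and from -0.06 to 0.10 in the first kind of library alone. Between Dox and Veh, 3 members passed, and 15 did with library weights (20.2% of all genes), of which only Kcnn3 was among the 3. In the first kind of library alone 5 passed (4.76% of all genes), and 1 did with single rows as deposited. With 1 rat left out 1 to 4 passed (1 without Veh replicate 2 or 6 or Dox replicate 1, 2 or 13). Between Dox + ABT and Veh, 10 passed, and 26 did with library weights (34% of all genes), all 10 among them. The kind of library as covariate left 2 (1.37% of all genes). In the first kind alone 0 passed by limma (1.1% of all genes), with 9 at an unadjusted p under 0.05 (5.86% of all genes). With 1 rat left out 6 to 14 passed (6 without Dox + ABT replicate 5). Between Dox and Dox + ABT, 7 passed, and 13 did with library weights (10.3% of all genes), with Kcna5, Kcnf1, Kcnh3, Kcnj4 and Kcnk1 in both. With 1 rat left out 4 to 8 passed (4 without Dox replicate 14 or Dox + ABT replicate 2 or 12). Shares of all genes are not given for the fits with 1 rat left out, so their counts describe the members alone. With the replicate block, 1, 8 and 3 passed in the 3 comparisons (4.91%, 7.57% and 2.58% of all genes); 4 of 32 comparisons placed a rat closest to its own number, so the numbers are not shown to pair the rats. Quantile normalization took the Kcnh3 and Kcnk1 calls between Dox and Dox + ABT, and the other pseudocounts, filters and rescalings kept each count within 1.5 times. The causes were not tested. Depth is known only as an estimate, so no counting error is given.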
